A study of Rattus norvegicus with 24 samples.

Results

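Microglia, the resident macrophages of the brain, were compared between LPS-injected rat pups that had been raised in intermittent hypoxia (IH LPS) and LPS-injected pups raised in normoxia (Nx LPS), with males and females pooled. Members were taken from the sample labels alone, as every sample labelled for an LPS injection, which gave 12 of the 24 samples of the series, 6 Nx LPS and 6 IH LPS, each with 3 males and 3 females. All pups were Sprague-Dawley rats killed at postnatal day 9. From postnatal day 1 they spent, together with their dams, 8 h a day, for 8 days, in air cycled every 2 min between 10.5% and 21% oxygen (IH) or held at 21% (Nx). LPS, a bacterial cell wall component that drives acute inflammation, was given 3 h before the brains were taken, about 16 h after the last exposure. The dose is 0.1 mg/kg in the series design and is written as 0.1 mg/mL in the sample labels. The remaining 12 samples, from pups given vehicle (saline in the labels, HBSS in the study's methods), serve here as the unstimulated level. Cells were pulled from whole brain without cerebellum and olfactory bulbs by magnetic beads against CD11b/c, which microglia share with other myeloid cells, and bulk mRNA was counted per gene. The labelled cell type was not checked against microglial markers here, because a symbol was available for only 21 of the identifiers.

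LPS is sensed by TLR4, a receptor on macrophages and microglia, which releases the transcription factor NF-κB into the nucleus. NF-κB then switches on cytokines such as IL-1 and IL-6, chemokines that call in leukocytes, adhesion molecules, and genes that restrain the response. A second arm of the same receptor induces interferon, which raises a further group of genes that includes Cxcl9, Cxcl10 and Irf1. The comparison asks whether 8 days of IH in early life change that response.

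No gene passed the test. Of 12860 genes, 0 (0%) had an adjusted p below 0.05 in edgeR's quasi-likelihood test with Benjamini-Hochberg adjustment, and the smallest adjusted p was 0.999. At an unadjusted p below 0.05 there were 238 genes (1.85%), 141 of them lower in IH LPS (1.1%) and 97 higher (0.754%). Both edgeR's likelihood ratio test and DESeq2 also gave 0 genes, with 265 and 262 at an unadjusted p below 0.05. The median log2 fold change over all genes was 0.01. Every value below therefore describes samples whose difference did not pass the correction for the number of genes tested.

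The samples differed widely in the genes that LPS induces, and 2 of them stood apart. Totals were 6928225 to 8043545 counts on genes in Nx LPS and 7349323 to 8548714 in IH LPS, and the 10 most abundant genes held 9.00% to 9.51% and 7.94% to 9.67% of counts. Over the 12 NF-κB targets described below, male IH LPS replicate 3 was the lowest of the 12 samples in 8 genes and male Nx LPS replicate 2 was among the 2 lowest in 9. The highest sample was male Nx LPS replicate 3 in 5 genes and male Nx LPS replicate 1 in 3. One low sample thus lay in each oxygen group, both of them male. In Irf1, a transcription factor of the interferon response, male Nx LPS replicate 2 had 159 CPM (counts scaled to library size), within the 129 to 174 of the 6 Nx vehicle samples. What set these samples apart was not tested. Fold changes of the named genes are given with all 12 samples and without both of these, a choice made after the values were seen.

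The 12 NF-κB targets that the study lists with an identifier (Il1a, Birc3, Csf3, Cxcl1, Cxcl10, Ptgs2, Irf1, Sele, Cxcl9, Cd83, Icam1 and Il6) all had log2 fold changes below 0 in IH LPS, and none passed the test. Their median was -0.86, with a range of -1.28 to -0.54, beside 0.01 over all genes, of which 47.6% were below 0. The confidence interval included 0 for 11 of the 12, all but Il1a. The study put these genes on its list because they were lower in IH LPS females, in these same samples. Those females are among the pooled samples, so the direction of the list was fixed by its choice and is no independent evidence. In bulk RNA, fewer responding cells and less RNA per cell cannot be told apart. The level was above that of every vehicle sample in all 12 LPS samples for Birc3, Csf3, Cxcl1, Cxcl10, Sele, Cd83 and Icam1, in 11 for Ptgs2 and Irf1, in 10 for Cxcl9 and Il6, and in 9 for Il1a. Of the 8 genes that the study followed by PCR, 3 had an identifier (Il1a, Cxcl10 and Ptgs2), and all 3 are among these targets.

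**Figure D1:**
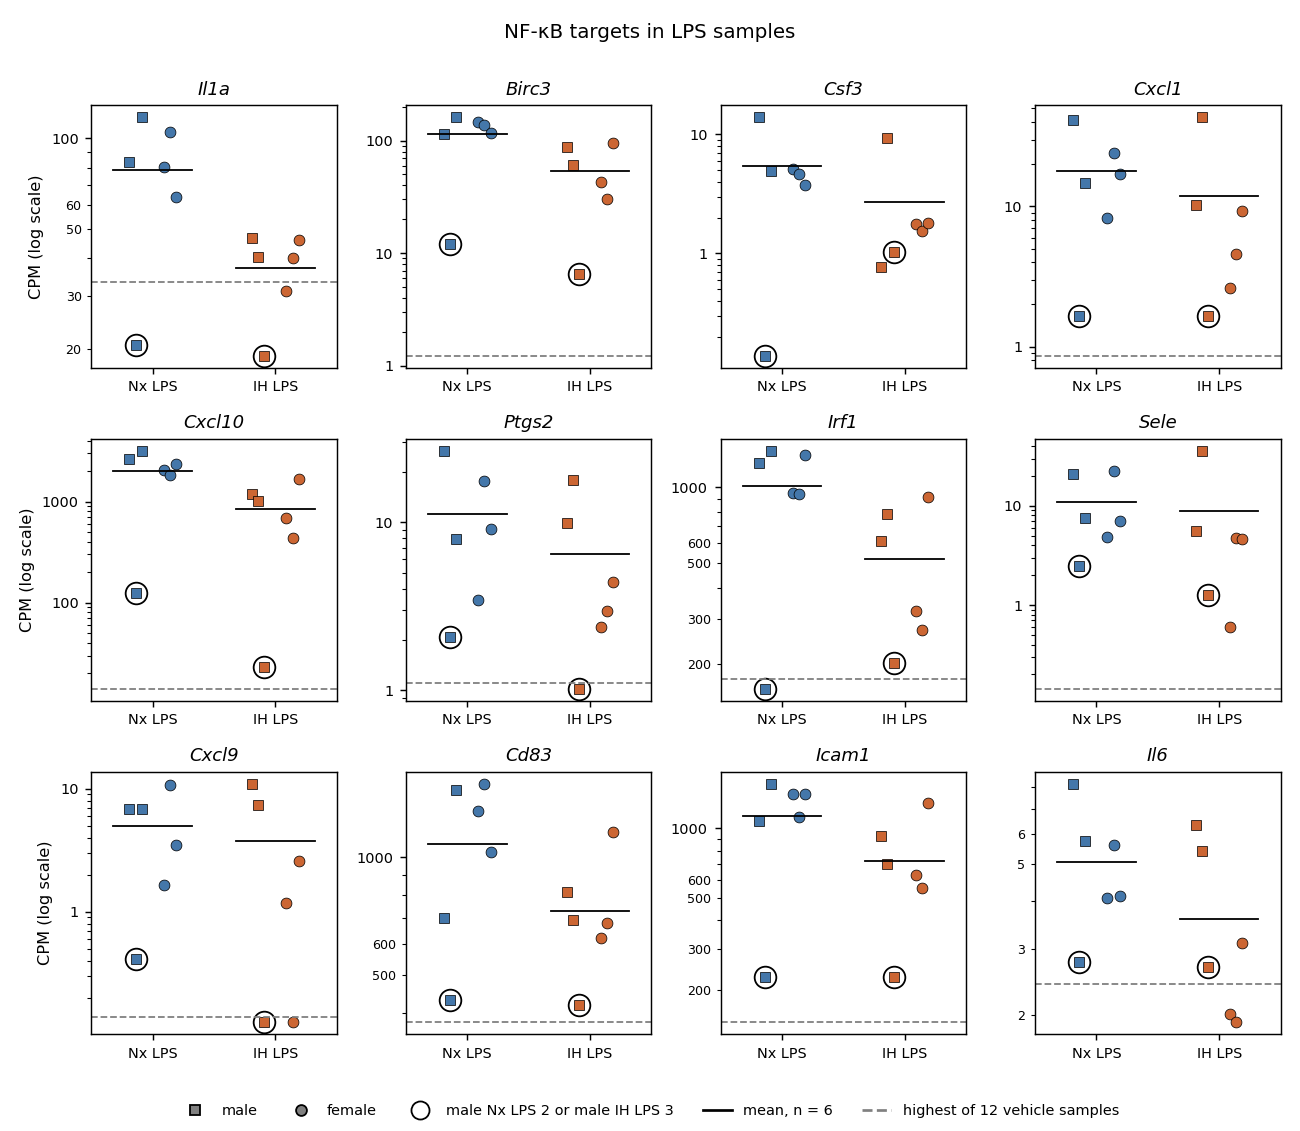
Level of each of 12 NF-κB targets (CPM, log axis) in the 6 Nx LPS and 6 IH LPS samples. Squares are males, circles females, bars the mean of 6, rings mark male Nx LPS replicate 2 and male IH LPS replicate 3, and the dashed line is the highest of 12 vehicle samples (none is drawn for Csf3, which had no count there). The IH LPS mean is below the Nx LPS mean in all 12 panels, and the points of the groups overlap in all 12.

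Il1a encodes interleukin-1 alpha, a cytokine that starts inflammation through the IL-1 receptor. Its level was 83.7, 20.6 and 117 CPM in the male Nx LPS samples and 80.2, 105 and 63.6 in the female ones. In IH LPS it was 46.7, 40.3 and 19.0 in males and 31.0, 40.1 and 45.9 in females. All 6 IH LPS samples were below 5 of the 6 Nx LPS samples, and the groups overlapped only through male Nx LPS replicate 2. Means were 78.4 ± 34.1 CPM in Nx LPS and 37.2 ± 10.5 in IH LPS (SD, n = 6), and the vehicle samples ran from 5.41 to 33.3 CPM. The log2 fold change was -1.07 (SE 0.33, 95% confidence interval -1.78 to -0.36), with an unadjusted p of 0.0063 and an adjusted p of 0.999 in edgeR's quasi-likelihood test. It was -1.07 in males and -1.06 in females. Without the 2 samples that stood apart it was -1.12 (SE 0.16), a smaller error that follows from leaving out samples picked for low levels of such genes.

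Cxcl10 and Cxcl9 encode interferon-induced chemokines that attract T cells. Cxcl10 was at 2614, 123 and 3190 CPM in male Nx LPS and 2029, 1821 and 2371 in female Nx LPS. In IH LPS it was 1186, 1014 and 23.1 CPM in males and 688, 440 and 1681 in females. Apart from male Nx LPS replicate 2, every Nx LPS sample was above every IH LPS sample, and vehicle samples held 3.98 to 14.1 CPM. The log2 fold change was -1.28 (SE 0.74, interval -2.88 to 0.33) with all samples, at an unadjusted p of 0.109 in edgeR's quasi-likelihood test. It was -1.24 (SE 0.28) without the 2 samples. Cxcl9 ran from 0.415 to 10.8 CPM in Nx LPS (median 5.17) and from 0.128 to 10.97 in IH LPS (median 1.89), with a log2 fold change of -0.71 (SE 0.85). Cxcl9 was at -0.15 without female Nx LPS replicate 2, -0.37 without female IH LPS replicate 2, -1.11 without male Nx LPS replicate 2 and -1.19 without male IH LPS replicate 1.

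Irf1 was at 1246, 159 and 1395 CPM in male Nx LPS and 951, 940 and 1342 in female Nx LPS. It was at 613, 781 and 202 CPM in male IH LPS and 324, 273 and 918 in female IH LPS. As for Cxcl10, male Nx LPS replicate 2 was the only Nx LPS sample below any IH LPS sample. The log2 fold change was -0.95 (SE 0.47, interval -1.95 to 0.06) and -1.02 without the 2 samples. Birc3, which encodes an inhibitor of apoptosis that also acts in NF-κB signalling, had the same layout, with 12.04 to 161 CPM in Nx LPS (median 127) and 6.50 to 95.2 in IH LPS (median 51.9). Its log2 fold change was -1.06 (SE 0.57) and -1.09 without the 2 samples. Vehicle samples had at most 1.23 CPM of Birc3.

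Icam1, an adhesion molecule that leukocyte integrins bind, ranged from 229 to 1558 CPM in Nx LPS (median 1263) and from 228 to 1288 in IH LPS (median 663). Cd83, a surface protein of activated antigen-presenting cells, ranged from 432 to 1536 CPM (median 1168) and from 420 to 1159 (median 684). In both genes female IH LPS replicate 3 lay among the Nx LPS samples, so the groups overlapped even without the 2 low samples. The log2 fold changes were -0.65 (SE 0.40) for Icam1 and -0.54 (SE 0.27) for Cd83. Without male Nx LPS replicate 3 they were -0.41 and -0.28. Il6, a cytokine of the acute response, was scarce at 2.77 to 8.14 CPM in Nx LPS (median 4.88) and 1.92 to 6.32 in IH LPS (median 2.89), with a log2 fold change of -0.57 (SE 0.31).

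The 4 remaining targets had few counts and were uneven between samples. Csf3, the granulocyte growth factor, had no count in any vehicle sample and 0.138 to 13.9 CPM in Nx LPS (median 4.75) against 0.774 to 9.31 in IH LPS (median 1.66). Cxcl1, a chemokine for neutrophils, ran from 1.66 to 41.3 CPM (median 15.9) and from 1.66 to 43.2 (median 6.97). Its highest IH LPS sample, male replicate 2, was above all Nx LPS samples. The same sample was the highest of all 12 for Sele, the endothelial adhesion molecule E-selectin, at 36.1 CPM against medians of 7.33 in Nx LPS and 4.70 in IH LPS. Ptgs2, the inducible cyclooxygenase that makes prostaglandins, had medians of 8.48 and 3.68 CPM. Log2 fold changes were -1.04 (SE 0.70) for Csf3, -0.78 (SE 0.74) for Cxcl1, -0.58 (SE 0.82) for Sele and -0.95 (SE 0.66) for Ptgs2. These values rested on single samples. Leaving out male IH LPS replicate 2 moved them to -1.94, -1.64, -1.70 and -1.42. Leaving out male Nx LPS replicate 1 moved Csf3 to -0.51, Cxcl1 to -0.40, Sele to -0.38 and Ptgs2 to -0.51. Without female Nx LPS replicate 2, Sele was at -0.07 and Ptgs2 at -0.60. Sele also moved to -0.94 without male Nx LPS replicate 2, to -0.38 without male IH LPS replicate 3 and to -0.24 without female IH LPS replicate 1. The direction stayed below 0 in all 12 fits that left out a sample.

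**Figure D2:**
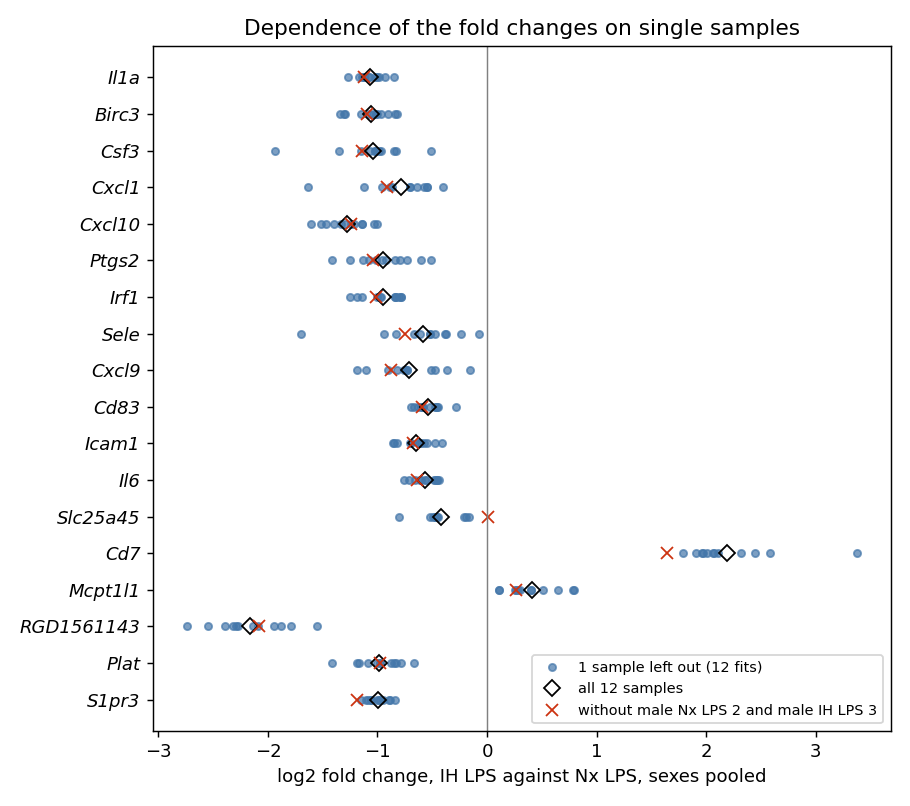
Log2 fold change of IH LPS against Nx LPS for 18 named genes, from all 12 samples (diamonds), from 12 fits that each left out 1 sample (circles), and without both samples that stood apart (crosses). No circle crosses 0, the circles of Sele run from -1.70 to -0.07, and those of S1pr3 from -1.15 to -0.84.

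Without the 2 samples the median log2 fold change of the 12 targets was -0.97, against -0.86 with all samples. The 2 samples were picked for their low levels of these very genes. A narrower spread of the targets and less overlap between the groups follow from leaving them out, and neither is read as a result. For the targets not given above, the values were -0.88 for Cxcl9, -0.68 for Icam1, -0.59 for Cd83, -0.64 for Il6, -1.15 for Csf3, -0.92 for Cxcl1, -0.75 for Sele and -1.04 for Ptgs2. Over all genes, 481 (3.74%) then had an unadjusted p below 0.05, 257 lower and 224 higher, and 0 passed the adjusted threshold in edgeR's quasi-likelihood test. Of all genes, 41 (0.319%) were then lower in every IH LPS sample than in every Nx LPS sample, 4 of the 12 targets among them. Since the 2 samples were picked on the targets, nothing is read from that count.

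The sexes were compared because they were pooled. The list of targets was chosen for lower levels in the females, so the female values are a description, and a gap between the sexes in the list follows in part from that choice. The median of the 12 targets was -0.54 in males and -1.18 in females, with 10 of 12 below 0 in males (all but Sele and Cxcl9, beside 50.3% of all genes) and 12 of 12 in females (beside 47% of all genes). With sexes pooled no named gene separated all 6 IH LPS from all 6 Nx LPS samples, and of all genes 0.0233% did so as lower and 0.0156% as higher. In females 7 targets (Il1a, Birc3, Csf3, Cxcl10, Irf1, Sele and Il6) were lower in all 3 IH LPS samples than in all 3 Nx LPS samples, a layout that 5.28% of all genes showed. In males no target did, beside 1.75% of all genes, and both low samples are male. Nothing is read from these counts, since the female samples served to choose the genes. Tested as an interaction, the effect of IH in males minus that in females passed the adjusted threshold for 0 of 12860 genes in edgeR's quasi-likelihood test, with 140 (1.09%) at an unadjusted p below 0.05 and 0 in both the likelihood ratio test and DESeq2. None of the 12 targets was among the 140. For Cxcl9, with the widest gap, the male effect minus the female one was 2.36 (SE 1.63) on the log2 scale, and for Il1a it was -0.01 (SE 0.68).

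**Figure D3:**
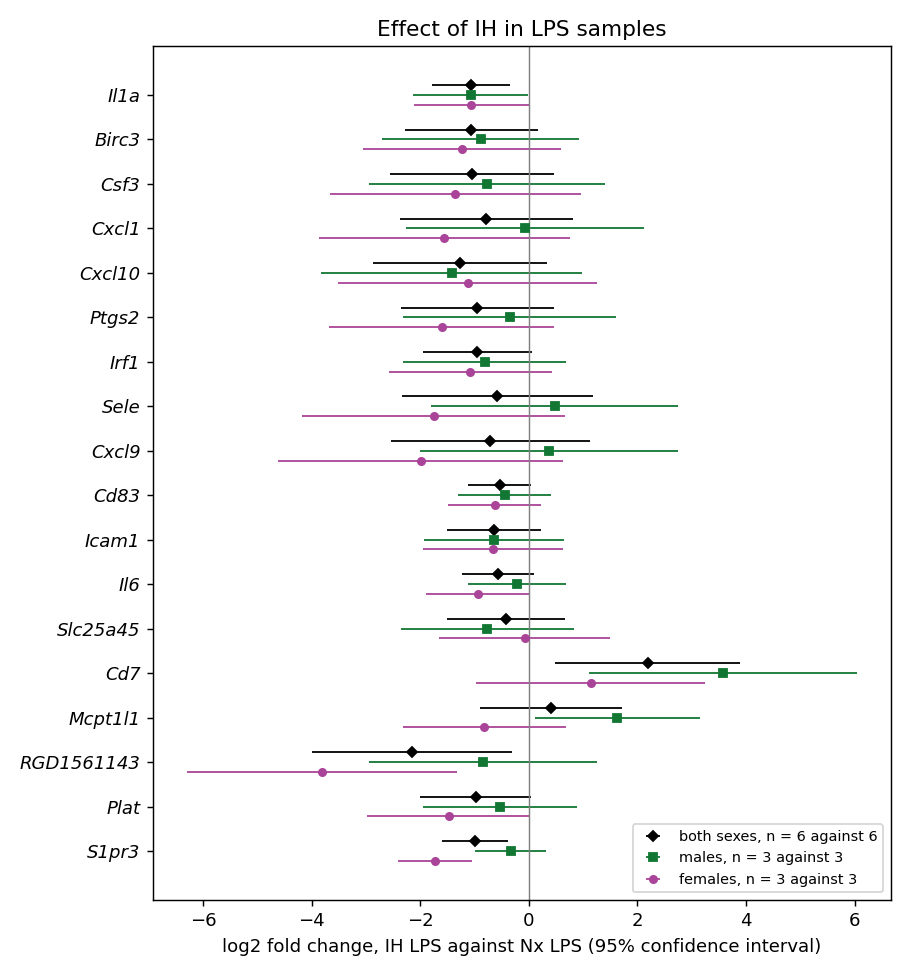
Log2 fold change of IH LPS against Nx LPS with its 95% confidence interval for 18 named genes, for both sexes together (6 against 6 samples, diamonds), males (3 against 3, squares) and females (3 against 3, circles). The interval for both sexes lies wholly on one side of 0 for Il1a, Cd7, RGD1561143 and S1pr3, and the other 14 include 0.

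The study names 7 genes for the effect of IH in LPS samples, namely Il1a and Slc25a45, Cd7, Mcpt1l1, RGD1561143, Plat and S1pr3. They too were chosen on these samples, Slc25a45, Cd7 and Mcpt1l1 as higher in IH LPS males and RGD1561143, Il1a, Plat and S1pr3 as lower in IH LPS females. Their values in those directions and sexes are therefore a description. None passed the pooled test. 5 had a log2 fold change below 0 (47.6% of all genes did) and 2 above. 4 had an unadjusted p below 0.05 (1.85% of all genes did), Il1a, S1pr3 and RGD1561143 lower and Cd7 higher. Unlike the NF-κB targets, Slc25a45, Cd7, Mcpt1l1, RGD1561143 and S1pr3 did not exceed the highest vehicle sample in any LPS sample.

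**Figure D4:**
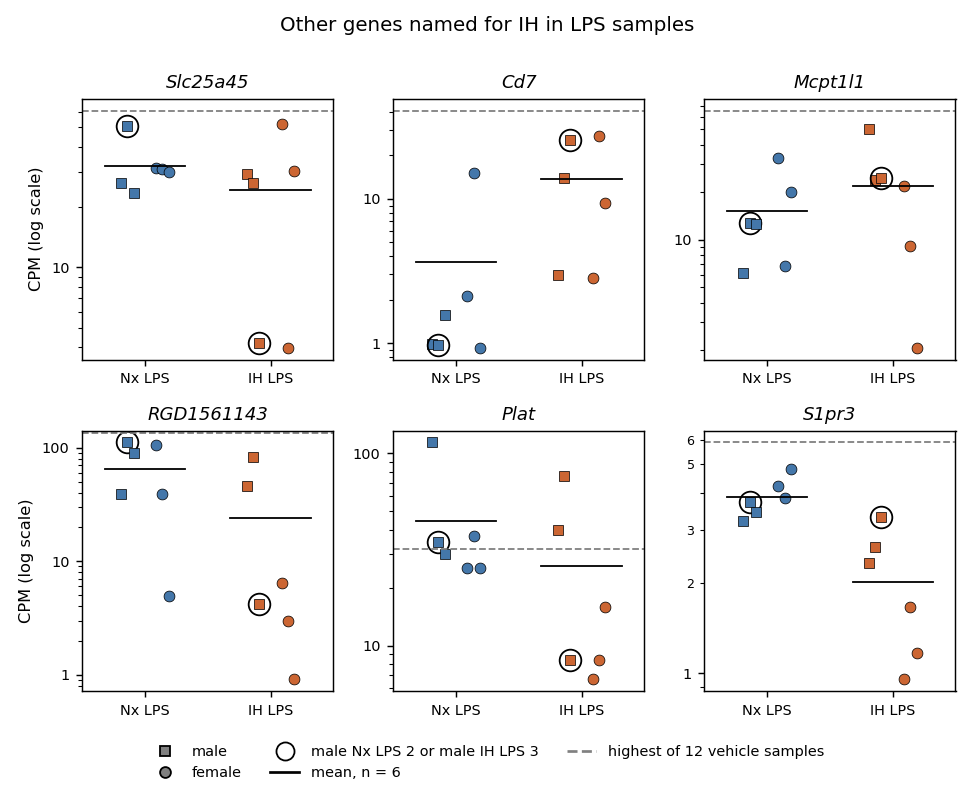
Level of 6 further genes named for IH in LPS samples (CPM, log axis), drawn as for the NF-κB targets, with squares for males, circles for females, bars for the mean of 6, rings for the 2 samples that stood apart and a dashed line for the highest vehicle sample. S1pr3 has the least spread, with 3.23 to 4.79 CPM in Nx LPS and 0.952 to 3.32 in IH LPS.

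S1pr3 encodes a receptor for the lipid signal sphingosine-1-phosphate. It was at 3.23, 3.74 and 3.45 CPM in male Nx LPS, 4.22, 3.84 and 4.79 in female Nx LPS, 2.32, 2.64 and 3.32 in male IH LPS, and 0.952, 1.67 and 1.17 in female IH LPS. The 3 female IH LPS samples were the lowest of the 12, and in males the groups overlapped through IH LPS replicate 3. The pooled log2 fold change was -0.999 (SE 0.28, interval -1.61 to -0.39), the eighth smallest unadjusted p of all genes at 0.0035, with an adjusted p of 0.999 in edgeR's quasi-likelihood test. It was -0.34 in males and -1.73 in females, a difference of 1.39 (SE 0.43). The gene was chosen for its low level in these females, so no p is given for that difference. Without the 2 samples that stood apart, the pooled value was -1.18 (SE 0.30). These are low levels, and vehicle samples ran as high as 5.89 CPM.

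Cd7 encodes a surface protein of T cells and natural killer cells, and is the only gene of the lymphocyte marker list whose identifier was available. It was at 0.983, 0.968 and 1.58 CPM in male Nx LPS, 2.11, 15.2 and 0.932 in female Nx LPS, 2.97, 14.03 and 25.5 in male IH LPS, and 2.85, 27.4 and 9.33 in female IH LPS. All 6 IH LPS samples were above 5 of the 6 Nx LPS samples, a layout not counted over all genes, the exception being female Nx LPS replicate 2. The log2 fold change was 2.19 (SE 0.79, interval 0.48 to 3.89), with an unadjusted p of 0.0157 in edgeR's quasi-likelihood test, and it was 3.38 without that sample. Without the 2 low samples it was 1.64 (SE 0.79), and the unadjusted p of 0.0599 was then above 0.05. Vehicle samples reached 40.9 CPM, above all LPS samples. The part of other cell types in this difference was not tested. Mcpt1l1, a mast cell protease, was higher in the 3 male IH LPS samples (50.2, 23.9 and 24.5 CPM) than in the 3 male Nx LPS samples (6.18, 12.7 and 12.6), a layout for which the study chose the gene and which 1.99% of all genes showed. The female samples overlapped, with means of 19.9 CPM in Nx LPS and 11.02 in IH LPS. The log2 fold change was 1.63 (SE 0.70) in males and -0.82 (SE 0.69) in females, a difference of 2.45 (SE 0.98). The pooled value was 0.41 (SE 0.61), or 0.27 without the 2 low samples, 0.11 to 0.80 when 1 sample was left out, and -0.0904 with limma-voom and sample quality weights.

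RGD1561143, which RefSeq lists as a synonym of Pilrb2, spanned 4.93 to 112 CPM in Nx LPS (median 64.3) and 0.907 to 83.5 in IH LPS (median 5.32). It was below 7 CPM in the 3 female IH LPS samples, male IH LPS replicate 3 and female Nx LPS replicate 3, and from 38.9 to 112 in the other 7. Vehicle samples spanned 0 to 135 CPM, so the gene varied as widely without LPS. The log2 fold change was -2.16 (SE 0.85, interval -4.00 to -0.32), with an unadjusted p of 0.0247 in edgeR's quasi-likelihood test. Plat, which encodes tissue plasminogen activator, had medians of 32.2 CPM in Nx LPS and 12.2 in IH LPS. It was at 6.66, 8.46 and 15.9 CPM in the 3 female IH LPS samples against 25.5, 37.0 and 25.3 in the 3 female Nx LPS samples. The study chose the gene for that direction in females, and 5.28% of all genes showed that layout. The male samples overlapped, at 114, 34.6 and 29.9 CPM in Nx LPS and 40.0, 75.8 and 8.42 in IH LPS. The pooled log2 fold change of Plat was -0.98 (SE 0.48). It was -1.41 without male IH LPS replicate 2 and -0.66 without male Nx LPS replicate 1. Without the 2 samples that stood apart the values were -2.08 (SE 0.93) for RGD1561143 and -0.98 (SE 0.39) for Plat. Slc25a45, a mitochondrial carrier, was at 4.21 and 3.97 CPM in male IH LPS replicate 3 and female IH LPS replicate 2 and from 23.6 to 52.0 in the other 10 samples. Its pooled log2 fold change of -0.42 (SE 0.50) became 0.01 without male Nx LPS replicate 2 and male IH LPS replicate 3. It ran from -0.80 to -0.17 when 1 sample was left out. In males, in which it was chosen as higher, it was -0.77 (SE 0.73).

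**Figure D5:**
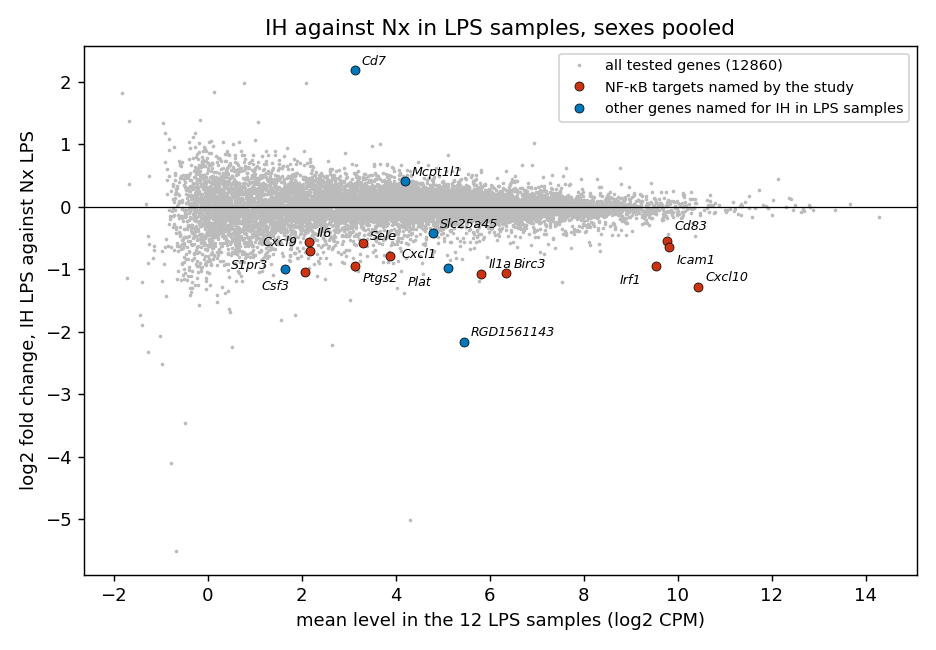
Log2 fold change of IH LPS against Nx LPS, sexes pooled, against mean level in the 12 LPS samples (log2 CPM) for 12860 genes (grey), with the NF-κB targets in red and the other named genes in blue. Cxcl10, at -1.28, lies apart from the grey points of similar level, and none of the coloured points passed the adjusted threshold.

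A difference of 1 or more on the log2 scale was uncommon. A log2 fold change below -1 was found in 78 of the 12860 genes (0.607%), among them Il1a, Birc3, Csf3, Cxcl10 and RGD1561143, and above 1 in 23 (0.179%), among them Cd7. The median standard error was 0.13 for genes above 100 CPM, 0.16 from 10 to 100 and 0.31 from 1 to 10. The 4 NF-κB targets with a mean above 100 CPM in the LPS samples had standard errors of 0.74 (Cxcl10), 0.47 (Irf1), 0.40 (Icam1) and 0.27 (Cd83). Genes without a symbol are shown by the smallest unadjusted p. ENSRNOG00000003897 was at 3.71 to 7.90 CPM in Nx LPS and 1.81 to 3.75 in IH LPS, with a log2 fold change of -0.98 (SE 0.23). ENSRNOG00000016275 had 957, 0 and 632 counts in the 3 male Nx LPS samples 17, 11 and 32 in the 3 female ones and at most 22 in any IH LPS sample. Its high Nx LPS counts came from 2 male samples, and IH vehicle samples reached 1779 counts. ENSRNOG00000012259 and ENSRNOG00000018694 were higher in IH LPS by 1.03 (SE 0.31) and 1.37 (SE 0.43) on the log2 scale, at a median of 1.74 and 2.08 CPM.

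The same exposure was compared in vehicle samples, which share no sample with the LPS comparison. Csf3, Cxcl9 and Sele had at most 3 counts over all of them and so no usable vehicle value. The 9 other targets had a median log2 fold change of 0.01 there, 4 below 0 (61.2% of all genes were) and 5 above. Again 0 of 12860 genes passed the adjusted threshold in edgeR's quasi-likelihood test, with 145 (1.13%) at an unadjusted p below 0.05, and 0 passed in both the likelihood ratio test and DESeq2. Taking the vehicle effect from the LPS effect gave a value below 0 for 8 of these 9 targets (median -0.92), beside 45.1% of all genes (median 0.02). The targets were chosen for lower levels in LPS samples, which by itself pulls this difference below 0. It passed in none of the 3 tests for any gene, with 181 (1.41%) at an unadjusted p below 0.05 in the quasi-likelihood test. Il6 lay in opposite directions, at 0.835 ± 0.345 CPM in Nx vehicle and 1.66 ± 0.449 in IH vehicle (SD, n = 6). Its log2 fold change was 0.95 in vehicle and -0.57 in LPS samples, a difference of -1.53 (SE 0.45) with an unadjusted p of 0.0024 and an adjusted p of 1.00 in edgeR's quasi-likelihood test. For Cxcl10 the vehicle value was 0.62 and the difference -1.90 (SE 0.92).

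The bases around the start site, 250 before and 50 after, were read for the genes described above, since NF-κB acts on its targets through a short DNA word. RefSeq promoters (build GRCr8) were matched for 14 of the 18 named genes, and the word searched was GGAAANNCC, with GGNNTTTCC as its form on the opposite strand. It occurred in 7.38% of 27457 promoters of 300 bases, in 5 of the 10 NF-κB targets with a promoter (Cxcl1, Cxcl10, Cxcl9, Icam1 and Il6) and in 0 of the 4 others. The interferon-response word GAAANNGAA or TTCNNTTTC occurred in 11.8% of promoters, in 1 of the 10 targets (Cxcl10) and in 1 of the 4 others. The hypoxia-response word ACGTG or CACGT occurred in 23.5% of promoters, in Ptgs2 and Cxcl9 of the targets and in S1pr3 of the others. The AP-1 word TGANTCA occurred in 8.93%, in Il1a and Cxcl10 of the targets. A match is a string of letters and no evidence of binding. A missing match speaks of this window and of the exact word searched alone, and other forms of the word were not searched. The 250 bases before the start site are printed for Cxcl10 and Cxcl1, which hold the NF-κB word, and for Il1a and S1pr3, which do not and which had the smallest unadjusted p of the genes with a symbol. Capitals mark the NF-κB word on either strand.
Cxcl10, chr14:15988816-15989065, plus strand: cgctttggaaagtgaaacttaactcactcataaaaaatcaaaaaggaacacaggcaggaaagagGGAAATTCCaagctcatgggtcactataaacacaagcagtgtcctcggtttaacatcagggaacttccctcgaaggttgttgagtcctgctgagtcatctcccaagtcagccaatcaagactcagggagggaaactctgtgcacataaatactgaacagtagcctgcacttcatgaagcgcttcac
Cxcl1, chr14:17479322-17479571, minus strand: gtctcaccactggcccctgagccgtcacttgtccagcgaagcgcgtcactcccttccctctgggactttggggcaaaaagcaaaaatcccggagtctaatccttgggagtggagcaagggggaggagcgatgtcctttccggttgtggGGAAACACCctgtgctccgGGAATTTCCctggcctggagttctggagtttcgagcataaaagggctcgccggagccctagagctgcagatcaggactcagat
Il1a, chr3:136990018-136990267, minus strand: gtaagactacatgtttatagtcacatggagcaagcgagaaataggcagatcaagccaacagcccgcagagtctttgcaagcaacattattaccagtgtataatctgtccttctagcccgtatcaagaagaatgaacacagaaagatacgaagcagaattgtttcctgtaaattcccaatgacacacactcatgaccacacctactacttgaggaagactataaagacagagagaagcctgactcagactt
S1pr3, chr17:13946014-13946263, minus strand: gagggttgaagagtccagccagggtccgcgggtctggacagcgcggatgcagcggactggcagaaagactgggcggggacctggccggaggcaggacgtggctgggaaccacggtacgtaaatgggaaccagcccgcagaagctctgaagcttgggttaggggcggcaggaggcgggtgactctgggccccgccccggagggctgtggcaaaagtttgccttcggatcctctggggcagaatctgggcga
In Cxcl10 the word began at position -186 from the start site, and in Cxcl1 at -102 and -83.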

How the data were processed

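RNA was sequenced from CD11b/c-isolated microglia of postnatal day 9 rats, and 12 LPS samples of 24 were analysed with the 12 vehicle samples as background. The authors aligned stranded mRNA reads with TopHat2 2.1 to rn6, per the submitters' processing notes, and counted them per Ensembl gene with HTSeq, and the deposited counts are whole numbers per gene, neither normalized nor filtered. Rows for reads assigned to no gene were dropped (reads on no annotated gene were, of all reads tallied in the files, 15.4% to 18.7% in Nx LPS and 15.0% to 18.6% in IH LPS).

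A gene was kept when its CPM was above 1 in 3 or more of the 24 samples, which left 12860 of 32754. Counts were scaled by TMM and tested in R 4.3.3 with edgeR 4.0.16 (quasi-likelihood test, sex as covariate, Benjamini-Hochberg, threshold 0.05), as the methods name edgeR but not its test. Alternatives were edgeR's likelihood ratio test, limma 3.58.1, DESeq2 1.42.0, RLE size factors, other filters, other models, a replicate block and leaving out each sample. Standard errors were derived from each log2 estimate and its F value. Fits with oxygen by injection used all 24 samples and those with oxygen by sex the 12 LPS samples. On simulated data, with 200 of 12860 genes changed in the pooled comparison, the test recovered 57% of genes changed by 1 and 88% of those changed by 2 on the log2 scale, with 4 false calls. Each simulated gene was drawn independently of the others, without shifts shared by the genes of a sample. The changed genes were picked at random from all genes. These shares therefore do not speak of the NF-κB targets, whose standard errors were larger than those of most genes.

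Identifiers were paired with symbols for 21 genes, from the study's table, so of 456 symbols in 28 fixed lists, 18 could be followed, and the marker lists of cell types were not analysed here. The named genes are those 18 that the study names for LPS samples and the 2 identifiers with the smallest p in each direction. Members and lists were chosen with earlier results of these data known. No pair of replicates was a repeat of 1 library (chi-square per degree of freedom 8.90 to 58.0). The sources used here do not say how many pups made up a sample, nor give the litter of a sample or batches, so p-values measure the spread between these samples. Pups were exposed together with their dams, so samples from the same litter would not be independent replicates of IH.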

Additional observations from a re-analysis of the deposited data

Results flagged for a closer look

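In 10 of 44 groups of 6 samples, a sample stood apart from the rest by Dixon's criterion (a gap to the nearest sample of more than 0.625 of the range). Chance gives about 1 in 20 for a single group of normally distributed values. The groups here reused the same samples gene by gene, in CPM without logs and with sexes mixed. The 10 of 44 are therefore not set against that share and serve only to list samples. In Nx LPS, male replicate 2 was low for Birc3 (12.04 CPM, nearest sample 114), Irf1 (159, nearest 940) and Icam1 (229, nearest 1074) and high for Slc25a45 (50.8, nearest 31.4). In the same group male replicate 1 was high for Csf3 (13.9 CPM, nearest 5.13) and Plat (114, nearest 37.0), and female replicate 2 was high for Cd7 (15.2, nearest 2.11). In IH LPS, male replicate 2 was high for Csf3 (9.31 CPM, nearest 1.81), Cxcl1 (43.2, nearest 10.2) and Sele (36.1, nearest 5.55). Male IH LPS replicate 3 was not among them, although it was the lowest sample for 8 of the 12 NF-κB targets.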

How the results depend on the processing

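No alternative gave a gene past the adjusted threshold, in the pooled comparison or in the vehicle, injection and sex comparisons. In the pooled comparison the number at an unadjusted p below 0.05 was 238, and 670 with limma-voom and sample quality weights, 405 of all expressed genes without a filter, 378 with all 24 samples in the fit, and 203 without sex as covariate. Leaving out a sample gave 167 to 621, the most without male Nx LPS replicate 2. Without male IH LPS replicate 1 it was 438, and of the named genes none turned direction in these 12 fits. With 1 sample left out, the number at an unadjusted p below 0.05 in the quasi-likelihood test also moved in the other comparisons. It ran from 92 to 267 for the sex difference, most without male IH LPS replicate 1. For the injection difference it was 129 to 440, most without male Nx LPS replicate 2. In vehicle samples it was 109 to 269, most without male Nx vehicle replicate 3. Of 432 values of named genes under the alternatives, 430 kept their direction and their side of the threshold. Mcpt1l1 turned to -0.0904 with limma-voom and sample quality weights, and Slc25a45, from -0.800 to -0.169 in the 12 fits, to 0.0095 without male Nx LPS replicate 2 and male IH LPS replicate 3, and the cause was not tested. The replicate numbers of the labels, fitted as a replicate block of 6 pairs, gave 0 genes (311 at an unadjusted p below 0.05), and 0 with the number alone beside sex (298). Same-numbered Nx LPS and IH LPS samples did not deviate together throughout (correlation -0.28 to 0.45, above 0.1 in 3 of 6 pairs), so the numbers were not taken as pairs. Intervals were widest for scarce genes: the median half-width of the 95% confidence interval was 1.04 on the log2 scale under 1 CPM and 0.28 above 100 CPM. The parts of depth and of spread between samples in this width were not separated.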

Other observations

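AC134224.3, a gene the study names for IH outside the LPS samples, was at 6.38 and 8.46 CPM in male IH LPS replicate 3 and female IH LPS replicate 2 and at 168 to 447 CPM in the other 10 LPS samples. These are the same 2 samples in which Slc25a45 was low, at 4.21 and 3.97 CPM, a likeness noticed after the values were seen. The pooled log2 fold change of AC134224.3 was -0.17 (SE 0.75) in LPS samples. Gpr15l and Cyp4f39, which the study also names outside the LPS samples, had pooled log2 fold changes of -0.15 (SE 0.38) and -0.08 (SE 0.51).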
